A study of Mus musculus with 6 samples.

Results

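The E2F factors and pocket proteins were followed in fetal livers of Klf1-/- mouse embryos. The set was given by name and held E2f1 to E2f8, Rbl1 and Rbl2. All 10 of these genes were measured, among 19937 genes in all. Each gene was represented by the single-gene probe set with the highest mean over all arrays, matched by the platform's gene symbol. RNA was taken from whole livers of FVB/NJ mouse embryos at embryonic day 13.5, the offspring of time-mated Klf1 +/- parents. Livers of 3 Klf1-/- embryos were compared with livers of 3 wildtype embryos, each on an Affymetrix mouse gene array of its own, so n = 3 per group throughout. The Klf1-/- genotype is present in every cell of the embryo, and each liver was dissociated to single cells with no sorting named in the labels. The comparison asks how the RNA level of the E2F network differs between Klf1-/- and wildtype livers. Klf1 is an erythroid transcription factor of the Krüppel-like family.

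E2F proteins bind DNA and turn the genes of S phase on or off. E2f1, E2f2 and E2f3 are known as activators, E2f4, E2f5 and E2f6 as repressors, and E2f7 and E2f8 as atypical repressors that work without a dimerization partner. The pocket proteins Rbl1 (p107) and Rbl2 (p130), relatives of the retinoblastoma protein, hold E2F factors in an inactive or repressive state until cyclin-dependent kinases phosphorylate them. Red cell precursors divide quickly in fetal liver and then leave the cell cycle as they mature, and E2f2 and E2f4 are known from mouse knockouts to be needed for normal red cell formation. Krüppel-like factors such as Klf1 bind C-rich motifs known as CACCC boxes.

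RefSeq promoter windows (GRCm38.p6) were found for 8 of the 10 genes, all but E2f4 and E2f5. E2f2 and E2f3 had a pair of windows each. The first 250 bases of a window, which lie before the transcript start, were searched on both strands for the CACCC box pattern CCNCNCCC, the E2F site pattern TTTNNCGC and the GATA site pattern NGATAA. Overlapping matches were counted separately, and runs of G also match the first pattern. That pattern is not the same as the letters CACCC. It also matches GC-rich stretches that lack them, and misses some stretches that hold them. The CACCC box pattern was present in 7 of the 10 windows, against 45.9% of 32851 RefSeq windows of the same length. The 7 include both windows of E2f2, so they are not 7 genes. They also include the E2f1 window, and this window and the second of E2f2 lie within their genes. The second E2f3 window is also among the 7, and it lies downstream of the first E2f3 window. How many of the 32851 windows lie within genes was not examined, and the shares over all windows were not matched for base composition. The E2F pattern was present in 3 of the 10, against 4.28% of all windows, and the GATA pattern in 1, against 22.5%. Both E2f2 windows are shown because this gene had the largest change. E2f8 is shown because it fell too, and Rbl2 because it was the one gene that rose. The windows shown were thus chosen by change, and capitals mark matches to the CACCC box pattern. The E2f2 windows lie at chr4:136172024-136172273 and chr4:136180532-136180781, both on the plus strand. The second thus lies downstream of the first, and its opening bases read as E2f2 coding sequence. It belongs to a start within the gene and is not its main promoter. The E2f8 window lies at chr7:48881597-48881846 on the minus strand and that of Rbl2 at chr8:91069807-91070056 on the plus strand.
E2f2, first start: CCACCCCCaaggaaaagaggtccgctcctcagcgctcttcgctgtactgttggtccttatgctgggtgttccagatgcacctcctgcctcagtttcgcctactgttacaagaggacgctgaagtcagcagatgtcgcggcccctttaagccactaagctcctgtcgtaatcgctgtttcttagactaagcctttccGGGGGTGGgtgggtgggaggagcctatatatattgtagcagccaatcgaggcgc
E2f2, second start: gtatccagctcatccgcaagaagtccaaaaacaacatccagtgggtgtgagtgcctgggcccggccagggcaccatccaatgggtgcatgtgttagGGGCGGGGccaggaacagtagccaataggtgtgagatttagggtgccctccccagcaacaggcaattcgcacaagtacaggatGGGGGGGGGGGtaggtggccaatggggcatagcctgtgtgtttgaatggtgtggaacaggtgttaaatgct
E2f8: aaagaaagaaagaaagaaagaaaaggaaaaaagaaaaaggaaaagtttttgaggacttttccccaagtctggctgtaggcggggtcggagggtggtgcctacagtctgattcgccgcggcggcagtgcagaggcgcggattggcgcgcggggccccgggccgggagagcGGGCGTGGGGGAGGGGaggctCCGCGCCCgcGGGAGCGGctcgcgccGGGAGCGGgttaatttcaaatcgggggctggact
Rbl2: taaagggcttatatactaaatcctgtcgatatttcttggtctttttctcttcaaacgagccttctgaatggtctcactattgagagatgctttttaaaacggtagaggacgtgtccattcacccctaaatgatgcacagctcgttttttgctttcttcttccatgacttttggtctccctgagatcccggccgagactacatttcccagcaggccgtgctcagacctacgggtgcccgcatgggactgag

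The first E2f2 window held 2 CACCC box matches, one of them 54 bases before the start, and the second window held 5, of which 4 overlap within 1 run of G. The E2f8 window held 6 matches and the Rbl2 window held 0. The E2f8 matches lack the letters CACCC on either strand, and both windows hold these letters outside any match. Of the other genes that fell, E2f1 had 5 matches, E2f7 had 6 and Rbl1 had 0, while E2f4 had no window to search. Most of the E2f1 window reads as E2f1 coding sequence. It therefore belongs to a start within the gene and does not cover the main E2f1 promoter, for any of the patterns. Of the genes that were not called, E2f6 had 3, and E2f3 had 0 in its first window and 6 in its second. Matches with the letters CACCC occurred only in the first E2f2 window and the E2f6 window. The Rbl1 window holds the letters outside any match. Where matches were found, G and C made up 77.6% of the window in E2f1, 79.2% in E2f7, 62.4% in E2f8 and 68% in E2f6. They made up 55.2% and 56.4% in E2f2 and 78% in the second of E2f3. In the windows with 0 matches they made up 46.8% in Rbl2, 63.6% in Rbl1 and 55.6% in the first of E2f3. The E2F pattern was found in Rbl1, E2f7 and the first window of E2f3. The Rbl1 window, at chr2:157204535-157204784 on the minus strand, is shown because both of its E2F matches lie close to the start; capitals mark them.
Rbl1: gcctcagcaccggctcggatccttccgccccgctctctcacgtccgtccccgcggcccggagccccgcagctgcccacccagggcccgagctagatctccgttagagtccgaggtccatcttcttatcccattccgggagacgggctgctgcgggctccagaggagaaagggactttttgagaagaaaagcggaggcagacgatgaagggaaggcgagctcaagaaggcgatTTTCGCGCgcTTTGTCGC

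All levels below are log2 of the RMA intensity (RMA is a method that corrects background, equalises the arrays and summarises the probes of a probe set), and all changes are Klf1 knockout minus wildtype in these log2 units. The value after ± of a change is its standard error from limma, a linear model fitted to every gene. A gene counts as called, and is said to have risen or fallen, where limma's p, adjusted for all genes by the Benjamini-Hochberg method, was below 0.05. A level belongs to its own probe set and was compared between livers, not between genes. The Klf1 probe set itself read 9.05, 9.38 and 9.12 in the knockout livers, against 10.59, 10.58 and 10.76 in the wildtype livers and fell by 1.46 ± 0.10 (limma adjusted p = 3.7e-06). The probe set thus kept signal in the knockout livers, 2.75-fold below wildtype, and which part of the gene was altered is not given in the labels. The median intensity was 104.5 to 109.8 on all 6 arrays. The labelled tissue was borne out by its markers, with Alb at 13.87 ± 0.08 in knockout and 13.93 ± 0.10 in wildtype livers (SD, n = 3) and the red cell gene Slc4a1 at 12.79 ± 0.10 and 13.57 ± 0.12. In a whole liver, fewer cells of a type and less RNA per cell cannot be told apart. Red cell markers were lower, with 8 of 9 falling, 1 not called and a summed intensity of 32522 to 34731 in knockout livers, against 59290 to 65752 in wildtype livers. Of the other markers, 6 of 6 for megakaryocytes rose (summed intensity 18286 to 23822 in knockout and 14230 to 14937 in wildtype livers), 4 of 6 for granulocytes rose (3297 to 3520 and 2114 to 2600) and 6 of 8 for macrophages fell (3211 to 3530 and 4356 to 5140). For hepatoblasts 2 of 8 fell (51553 to 55402 and 52995 to 62975), and for endothelium 1 of 6 rose (3505 to 4172 and 3277 to 4658). No marker was listed at 0, and the part of these cell types in the changes below was not tested.

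The E2F and pocket protein genes were mostly lower in Klf1-/- livers. E2f1, E2f2, E2f4, E2f7, E2f8 and Rbl1 fell, Rbl2 rose, and E2f3, E2f5 and E2f6 were not called. Over all genes tested 19.1% were called, 8.26% lower and 10.8% higher, against 6 lower and 1 higher among these 10. Of all calls 43.2% were lower, and 55.5% when each array was centred on its 75th percentile, under which the calls of these 10 genes were the same. The knockout and wildtype livers did not overlap in 7 of the 10 genes, against 37.5% of all genes. The median change of the 10 genes was -0.38, against -0.02 over all genes. For the lists described further on, 54.8% of all genes had negative changes, and at an unadjusted p under 0.05 16.4% were lower and 16.8% higher. Among the E2F genes the estimates ran from -2.54 in E2f2 to 0.15 in E2f6, and the pocket protein genes stood at -0.31 for Rbl1 and 0.49 for Rbl2.

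**Figure D1:**
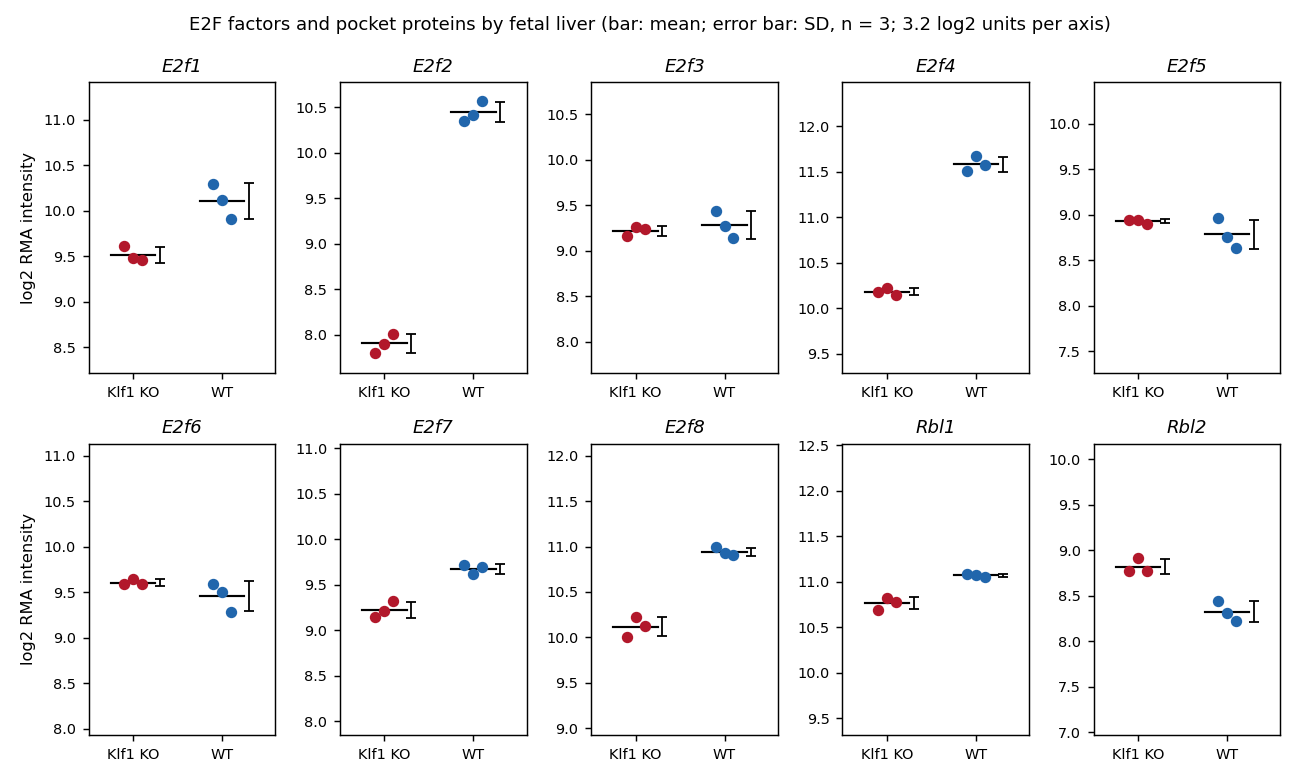
Log2 RMA intensity (vertical axis, the same span in every panel) of the 10 genes in each fetal liver, with Klf1 knockout livers in red at the left and wildtype livers in blue at the right of each panel; bars are means and error bars SD of 3 livers. E2f2 and E2f4 have the widest gaps, with means of 7.90 and 10.18 in knockout livers, against 10.44 and 11.58 in wildtype livers, and E2f3, E2f5 and E2f6 overlap between the groups.

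Among the activators E2f2 and E2f1 fell, and E2f2 had the larger change. E2f2 read 7.80, 7.90 and 8.004 in the knockout livers, against 10.35, 10.41 and 10.57 in the wildtype livers. All knockout livers were far below all wildtype livers, a change of -2.54 ± 0.09 or 5.82-fold lower (limma adjusted p = 2.3e-08). Of all genes tested, 23 had a more negative change. In linear intensity the probe set averaged 239.8 in knockout and 1395 in wildtype livers. E2f1, the founding activator, which also promotes cell death, read 9.61, 9.48 and 9.45 in the knockout livers, against 10.30, 10.12 and 9.91 in the wildtype livers. The groups did not overlap, with the lowest wildtype liver close to the knockout range, and the change was -0.59 ± 0.10 (limma adjusted p = 0.0025). E2f3, the activator made from a pair of promoters, read 9.16, 9.26 and 9.24 in the knockout livers, against 9.44, 9.27 and 9.14 in the wildtype livers. The knockout values lay inside the wildtype range, and the change of -0.06 had a 95% interval from -0.27 to 0.14. A second E2f3 probe set was likewise not called, at 8.08, 8.12 and 8.09 in the knockout livers and 8.21, 8.03 and 8.07 in the wildtype livers.

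Among the repressors, E2f4 fell and its nearest relatives were not called. E2f4, which binds pocket proteins in resting cells, read 10.18, 10.22 and 10.15 in the knockout livers, against 11.50, 11.67 and 11.57 in the wildtype livers. The knockout livers lay within 0.1 of each other and more than 1 unit below every wildtype liver, a change of -1.40 ± 0.08 or 2.64-fold lower (limma adjusted p = 7.3e-07). Of all genes, 109 had a more negative change. E2f5, a second pocket protein partner, read 8.94, 8.94 and 8.90 in the knockout livers, against 8.96, 8.76 and 8.64 in the wildtype livers. The groups overlapped, and the change of 0.14 had a 95% interval from -0.06 to 0.35. E2f6, which acts in a Polycomb complex and binds no pocket protein, read 9.59, 9.65 and 9.59 in the knockout livers, against 9.59, 9.50 and 9.28 in the wildtype livers, with a change of 0.15 and an interval from -0.06 to 0.35. The highest wildtype liver reached the knockout range for both genes, and the intervals of E2f3, E2f5 and E2f6 allow changes of either sign.

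Both atypical repressors fell. E2f8 read 10.01, 10.22 and 10.13 in the knockout livers, against 10.99, 10.92 and 10.91 in the wildtype livers. The groups were well apart, with a change of -0.82 ± 0.08 or 1.77-fold lower (limma adjusted p = 5.1e-05). E2f7 read 9.14, 9.21 and 9.32 in the knockout livers, against 9.72, 9.62 and 9.69 in the wildtype livers. The groups again did not overlap, and the change was -0.45 ± 0.08 (limma adjusted p = 0.0028).

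The pocket protein genes moved in opposite directions. Rbl2, whose protein is the pocket protein of resting and maturing cells, read 8.77, 8.91 and 8.77 in the knockout livers, against 8.44, 8.31 and 8.22 in the wildtype livers. It was the only one of the 10 genes that rose, by 0.49 ± 0.09 or 1.41-fold (limma adjusted p = 0.0026). Rbl1, whose protein is most abundant in dividing cells, read 10.69, 10.82 and 10.78 in the knockout livers, against 11.09, 11.07 and 11.06 in the wildtype livers. Every knockout liver was below every wildtype liver, but the change of -0.31 ± 0.08 was the smallest called (limma adjusted p = 0.016). That call was lost without knockout replicate 1 (limma adjusted p = 0.0534) or without knockout replicate 3 (limma adjusted p = 0.0558).

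Close relatives were then compared within each array, which cancels any factor common to both genes of a pair. The knockout minus wildtype difference between E2f2 and E2f1 was -1.95 ± 0.20 (SE, n = 3 per group). It was -2.48 ± 0.15 for E2f2 minus E2f3 and -1.55 ± 0.13 for E2f4 minus E2f5. It was -0.37 ± 0.07 for E2f8 minus E2f7, and Rbl2 minus Rbl1 gave 0.80 ± 0.07. In all 5 pairs the 3 knockout values did not overlap the 3 wildtype values. Each pair had p = 0.10 in an exact 2-sided permutation test, also after Benjamini-Hochberg adjustment over the 5 pairs, which is the smallest p that 3 against 3 arrays can give, so these are sizes and not calls.

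**Figure D2:**
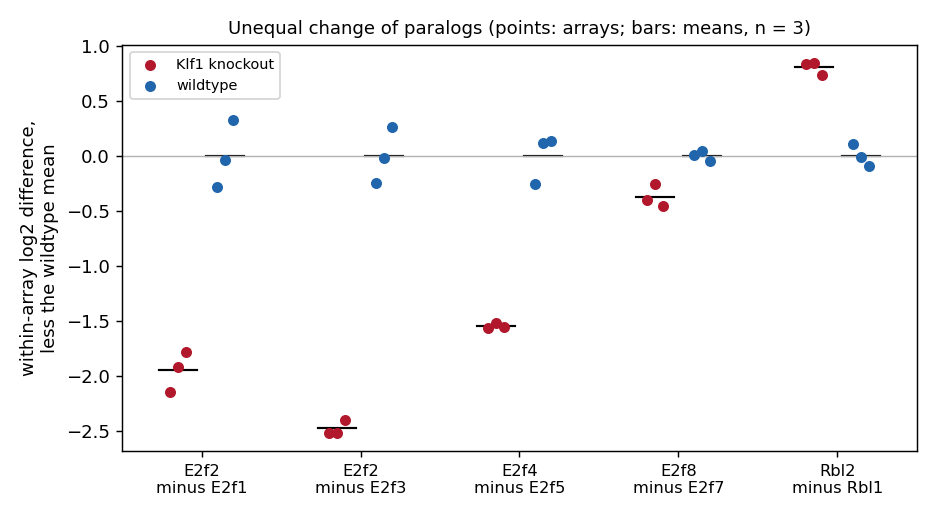
Within-array log2 difference between paralogs, less the mean of the wildtype livers (vertical axis), for 5 pairs, with Klf1 knockout livers in red at the left and wildtype livers in blue at the right of each pair; bars are means of 3 livers. The knockout points of E2f2 minus E2f1, E2f2 minus E2f3 and E2f4 minus E2f5 lie far below the wildtype points, those of E2f8 minus E2f7 lie slightly below, and those of Rbl2 minus Rbl1 lie above.

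E2F factors other than the atypical pair bind DNA together with a DP protein. Of the DP genes, Tfdp2 fell and Tfdp1 was not called. Tfdp2 read 10.05, 10.08 and 10.10 in the knockout livers, against 11.19, 10.77 and 11.20 in the wildtype livers, a change of -0.98 ± 0.11 (limma adjusted p = 0.00015). Tfdp1 had an estimate of -0.09 with a 95% interval from -0.25 to 0.07, although its groups did not overlap. It has 2 probe sets, and their mean changed by -0.16, likewise not called (limma adjusted p = 0.17). Rb1, the gene of the retinoblastoma protein and the third pocket protein, was not called either, with a change of 0.06 and an interval from -0.10 to 0.22.

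Rbl1 and Rbl2 join E2f4, a DP protein and the MuvB core in the DREAM complex, which silences cell cycle genes in resting cells. Of the 5 MuvB core genes, Lin9, Lin37, Lin52, Lin54 and Rbbp4, 0 were called by limma at an adjusted p under 0.05. The estimate was -0.24 ± 0.08 for Lin54, the DNA-binding subunit, -0.15 ± 0.08 for Rbbp4, -0.08 ± 0.07 for Lin52, -0.08 ± 0.08 for Lin9 and 0.08 ± 0.08 for Lin37. Lin54 missed the threshold narrowly (limma adjusted p = 0.0503), passed it under 6 of the 17 alternatives, and was the one core gene with an unadjusted p under 0.05. In dividing cells MuvB instead binds B-Myb, the product of Mybl2, and later Foxm1. Mybl2, itself a classical E2F target, fell by 0.76 ± 0.08 on the log2 scale (limma adjusted p = 5.4e-05), with 9.29, 9.38 and 9.40 in the knockout livers, against 10.16, 10.06 and 10.12 in the wildtype livers. Its relative Mybl1 fell by 0.44 ± 0.11 (limma adjusted p = 0.019), a call lost without knockout replicate 1 (limma adjusted p = 0.0594) or 2 (limma adjusted p = 0.0699). Foxm1 was not called, at -0.12 ± 0.07. Of the 8 genes of this list 2 fell and 0 rose in limma, with 3 and 0 at an unadjusted p under 0.05, and the median change was -0.13.

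**Figure D3:**
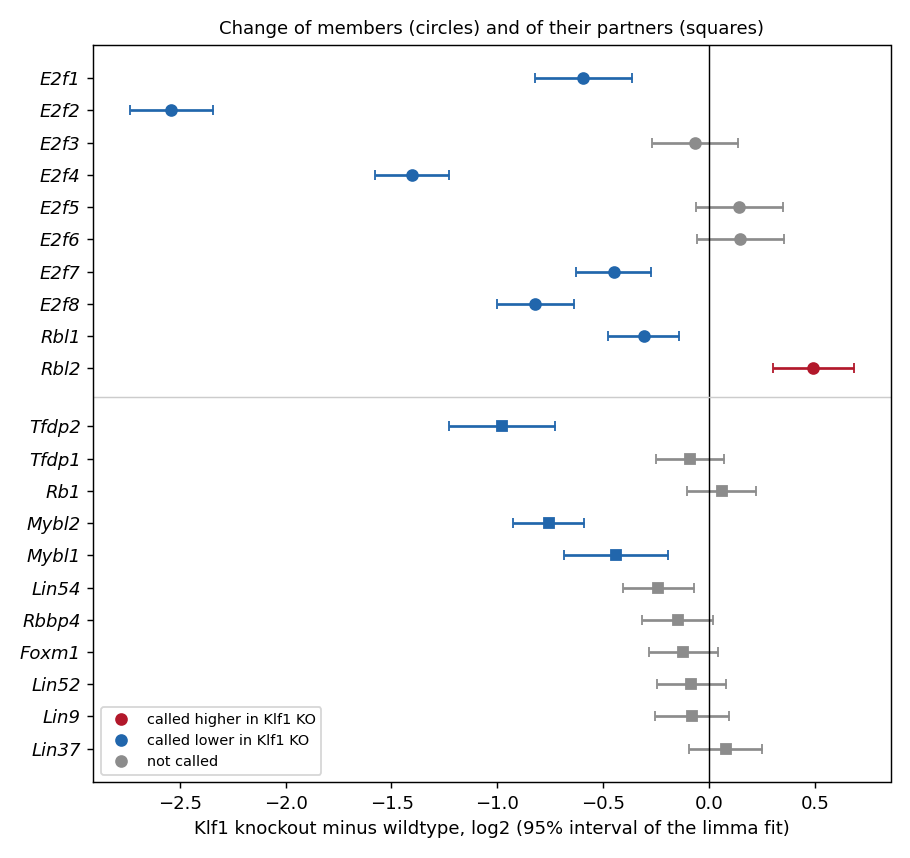
Change (horizontal axis, Klf1 knockout minus wildtype, log2) of the 10 genes as circles and of their DP, Rb1, MuvB and Myb partners as squares, with 95% intervals of the limma fit; blue marks genes called lower, red called higher and grey not called. E2f2, E2f4, Tfdp2, E2f8 and Mybl2 lie furthest below 0, and Rbl2 is the only gene called higher.

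In the Polycomb complex of E2f6, 2 of 12 genes rose, 0 fell and 10 were not called in limma, against 10.8% called higher over all genes. The median change was 0.05 (3 higher and 0 lower at an unadjusted p under 0.05). Rnf2, a ubiquitin ligase of histone H2A, rose by 0.44 ± 0.09 (limma adjusted p = 0.0076). Mga, the DNA-binding scaffold of the complex, rose by 0.33 ± 0.07 (limma adjusted p = 0.011), a call lost without knockout replicate 3 (limma adjusted p = 0.053). Of 5 germline genes that E2f6 is known to silence outside the germline, 0 rose in limma and 1, Tuba3a, fell by 0.31 ± 0.09, with a median of -0.19 (0 higher and 2 lower at an unadjusted p under 0.05). Tuba3a is a tubulin gene with a near-identical copy, Tuba3b, from which an array may not tell it apart. Tuba3b had a probe set of its own, not called, with an estimate of 0.25 ± 0.16. It read 4.16, 3.89 and 4.60 in the knockout livers, against 4.14, 3.83 and 3.93 in the wildtype livers. Among these germline genes, Slc25a31, Smc1b and Tuba3b had levels at percentiles 4.80, 7.10 and 5.94 of all genes. With no detection call, such low levels cannot be told from background. The median of -0.19 is the change of Slc25a31. The call of Tuba3a was lost in 8 of the 16 alternatives that tested it, among them without knockout replicate 2 or 3 or wildtype replicate 2 or 3.

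Upstream of the pocket proteins, the list of cyclins, kinases and inhibitors that set their phosphorylation was lower in part. Of 15 measured genes 6 fell, 0 rose and 9 were not called in limma, with a median of -0.20 (7 lower and 1 higher at an unadjusted p under 0.05). Cdkn2c, an INK4 inhibitor of Cdk4 and Cdk6, fell by 1.47 ± 0.09 on the log2 scale, Cdkn2d of the same family by 1.11 ± 0.09, and Cdkn1b, the inhibitor p27, fell by 0.43 ± 0.08. Ccne2, a cyclin that is also an E2F target, changed by -1.0002 ± 0.15, with 9.49, 9.48 and 9.40 in the knockout livers, against 10.84, 10.13 and 10.41 in the wildtype livers. Wildtype livers varied more than knockout livers here, but the groups did not overlap (limma adjusted p = 0.00081). Cdkn2b, a further INK4 inhibitor, and Ccne1, the other E cyclin, made up the 6, with smaller falls. Cdkn2b fell by 0.28 ± 0.08 (limma adjusted p = 0.030), at a low level, percentile 37.2 of all genes. Ccne1 fell by 0.32 ± 0.08 (limma adjusted p = 0.014). The 6 were thus 4 inhibitors and 2 cyclins of the E type. With 1 array left out the count ran from 4 to 6, with 4 without knockout replicate 3.

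Part of the known cell cycle targets of the E2F factors fell. Among 38 measured targets with roles in G1/S and replication, 36 had negative changes, of which 13 fell; 0 rose and 25 were not called in limma, with a median of -0.19 (21 lower and 0 higher at an unadjusted p under 0.05). Dck, which salvages deoxynucleosides, fell by 1.54 ± 0.08 (limma adjusted p = 4.3e-07), with 8.62, 8.61 and 8.51 in the knockout livers, against 10.20, 10.05 and 10.08 in the wildtype livers. Fbxo5, an inhibitor of the anaphase-promoting complex, fell by 0.74 ± 0.08, Rrm2, a ribonucleotide reductase subunit, by 0.67 ± 0.09, and Slbp, which binds histone mRNA, by 0.65 ± 0.08. In the list of G2/M genes controlled by DREAM 20 of 21 changes were negative, 7 genes fell and 0 rose in limma, and the median was -0.16 (9 lower and 0 higher at an unadjusted p under 0.05). Kif23, a kinesin of cytokinesis, fell by 0.78 ± 0.08, Ube2c by 0.57 ± 0.09, Cenpf by 0.55 ± 0.07 and Birc5, which encodes survivin, by 0.50 ± 0.08. The count of 7 dropped to 4 without any one of the 3 knockout replicates or without wildtype replicate 1. The limma adjusted p was at most 0.00177 for Fbxo5, Rrm2, Slbp and these 4 G2/M genes.

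Among 8 measured E2F targets in cell death, 3 rose, 0 fell and 5 were not called in limma, with a median of -0.0017 (3 higher and 2 lower at an unadjusted p under 0.05). Apaf1, the scaffold of the apoptosome, read 10.23, 10.29 and 10.22 in the knockout livers, against 9.56, 9.55 and 9.52 in the wildtype livers, and rose by 0.70 ± 0.07 (limma adjusted p = 6.6e-05). Bcl2l11, a death-promoting BCL2 relative, rose by 0.45 ± 0.08 and Ppp1r13b, a cofactor of p53, by 0.35 ± 0.07, with limma adjusted p of 0.0070 or less.

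**Figure D4:**
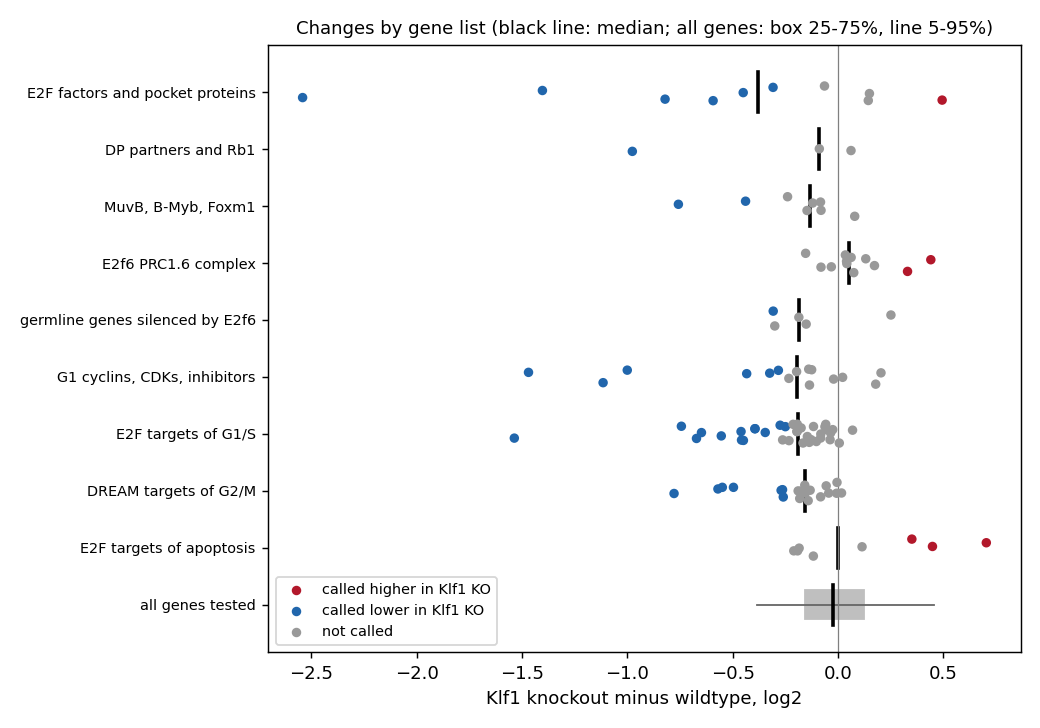
Change of each gene (points; horizontal axis, Klf1 knockout minus wildtype, log2) in the E2F and pocket protein set and in 8 lists of partners, upstream regulators and targets, with the median of each list as a black line and the distribution of all 19937 genes at the bottom. The median of -0.38 in the E2F and pocket protein genes lies below those of the G1/S and G2/M target lists, at -0.19 and -0.16, and the called apoptosis targets lie to the right of 0.

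The genes whose values across the 6 arrays lay closest to those of E2f2, after each gene was centred on its own mean, were Rgcc, Klf3 and Ubac1, with Euclidean distances of 0.18, 0.20 and 0.21 and changes of -2.47, -2.59 and -2.49. Closest to E2f4 were Map4k5, Ttll12 and Dnaja4, with distances of 0.13, 0.14 and 0.15. Closest to Rbl2 were Taf9b, Ssbp2 and Pik3cd, with distances of 0.06, 0.06 and 0.08. The genes nearest to Rbl2 had changes of 0.49, 0.47 and 0.48. Genes picked by this distance have changes close to that of the member by construction, so the likeness of the changes is no further result.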

How the data were processed

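RNA of 3 Klf1-/- and 3 wildtype fetal livers was measured on 6 Affymetrix arrays. The submitters' processing notes name RMA and Affymetrix Power Tools 1.8.6 as what the authors used for the deposited intensity values. These are linear, from 5.6 to 27245, with no detection call; genome build not given in the sources used here. A change in total RNA cannot be seen in values equalised this way. Log2 was taken with no further scaling or filter.

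Of 34760 probe sets, 21640 named 1 gene, 1321 several and 11799 none; the brightest single-gene one stood for each of 19937 genes. limma 3.58.1 (R 4.3.3, lmFit, eBayes) tested each gene, 2-sided, on genotype alone, and p-values were adjusted over all genes by Benjamini-Hochberg. The fit was also run on simulated data with planted changes and noise drawn independently for each gene. Such data lack deviations that genes of one array share, and the outcome is not used here. The members, gene lists and tests were chosen with earlier results of these data known. Named were the members, Klf1, and all DP, Rb1, MuvB and Myb genes. Up to 4 called genes with the largest change were named in each other list. The 3 genes nearest to E2f2, E2f4 and Rbl2 were named too. Alb, Slc4a1, Cdkn2b, Ccne1, Tuba3b, Slc25a31 and Smc1b were added after their values were seen. Litters are not given, so the p-values reflect variation among these embryos only, and 6 arrays limit the precision. Same-numbered replicates did not deviate together (correlations of -0.16, -0.22 and 0.18) and were not paired. The 17 alternatives varied scaling, filters, probe set choice, variance model, array weights, block, threshold and the arrays used.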

Additional observations from a re-analysis of the deposited data

How the results depend on the processing

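Under the 17 alternatives 9 of the 10 genes kept their side of the threshold, Rbl1 being the exception, and the 7 called genes kept their direction. Rbl1, at -0.31, was not called at an adjusted p under 0.01, and with 1 array left out ran from -0.34 to -0.27. The uncalled E2f3 turned to 0.02 without wildtype replicate 1, and with 1 array left out E2f2 ran from -2.59 to -2.48. With 1 array left out, genes called higher ran from 1371 to 2106 and lower from 1026 to 1643, against 2163 and 1646 with all arrays; the lowest counts came without knockout replicate 2 (1371 and 1038) and without knockout replicate 3 (1388 and 1026). At an adjusted p under 0.01, 1160 were higher and 835 lower, and 1042 were lower after centring on the housekeeping genes. The G2/M count of 7 fell to 4 with quantile normalization, housekeeping centring, every probe set or an adjusted p under 0.01, and with 1 array left out it ran from 4 to 6; the G1/S count ran from 11 to 12. With the replicate block the G2/M count was 4, the G1/S count 11, and 2002 genes were higher and 1496 lower; the block changed the call of none of the 10 genes. Fewer arrays and a stricter threshold lower such counts by construction; the cause of the other shifts was not tested. The MuvB and Myb count of 2 falls dropped to 1 without knockout replicate 1 or 2, and the Polycomb count of 2 rises to 1 without knockout replicate 3. The germline gene count of 1 fall ran from 0 to 2 with 1 array left out.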

Other observations

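Within the wildtype group, 7 of the 10 genes, E2f1, E2f3, E2f5, E2f6, E2f8, Rbl1 and Rbl2, had their highest value in replicate 1 and their lowest in replicate 3; over all genes this held for 21.7%. E2f2 had the opposite extremes, with its highest value in replicate 3 and its lowest in replicate 1. The SD over the 3 livers was larger among knockout than among wildtype livers for E2f7, E2f8 and Rbl1, and larger among wildtype livers for the other 7 genes. It was 0.11 in knockout and 0.05 in wildtype livers for E2f8, and 0.02 in knockout and 0.16 in wildtype livers for E2f5. These differences in spread were not tested.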
